A study of Mus musculus with 8 samples.

Results

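Cells that use oxygen form superoxide and hydrogen peroxide, and a small set of enzymes removes them. Superoxide dismutases turn superoxide into hydrogen peroxide, and catalase in peroxisomes splits hydrogen peroxide into water and oxygen. Glutathione peroxidases spend glutathione, and peroxiredoxins mostly spend thioredoxin, to reduce hydrogen peroxide and lipid peroxides. In the gut these enzymes meet oxidants from fat oxidation, from the food and from microbes. The results concern 10 named genes of these families, of the 54532 genes in the count table: the glutathione peroxidases Gpx1, Gpx2 and Gpx4, the peroxiredoxins Prdx1, Prdx2, Prdx5 and Prdx6, the peroxiredoxin-like Fam213a, the copper-zinc superoxide dismutase Sod1, and catalase, Cat. They were listed by name and function, with earlier results of these data known, and they lie on 10 different chromosomes.

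The samples were intestinal epithelial cells of female mice at lactation day 5, from 4 WT and 4 Rank-knockout animals, with 1 library per sample. Rank (gene symbol Tnfrsf11a) is the receptor for the cytokine RANKL, and the comparison asks how its loss from the gut lining changes gene expression in nursing mothers. Per the study's methods, a floxed Rank gene was deleted with Cre driven by the Villin1 promoter, which is active in the whole intestinal epithelium and not in a single cell type. WT and deleted females were littermates and were mated to wild-type C57BL/6J males. Animals were in general age-matched, and the age and litter of each one are not given in the sources used here. Cells were shaken off tissue pieces with a dissociation reagent and strained, not sorted, so other cells could be carried along.

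Total counts per library ran from 1530781 to 4335653, and WT replicate 2 held the most. Levels are in CPM, a gene's 3′ tags scaled to a common library size by TMM, which balances the libraries on the bulk of their genes. The method reads about 1 tag per transcript, so CPM was not divided by gene length. Of 9855 genes that passed the filter on low counts, 2993 differed between the genotypes at an adjusted p under 0.05 (edgeR quasi-likelihood F-test, Benjamini-Hochberg), 1555 higher and 1438 lower in Rank-knockout. With plain library totals the split was 2566 higher and 859 lower. Totals that omit the 50 most abundant genes gave 2164 and 1016. These scalings raised the median of all genes by 0.20 and 0.13 on the log2 scale. The level of Tnfrsf11a was 60.7 ± 17.7 CPM in WT against 38.0 ± 8.64 in Rank-knockout (each ± is an SD over n = 4 libraries), with overlap. It was called lower (log2 fold change -0.67, edgeR adjusted p = 0.0321). Scaling by library totals ended this call (0.113), as did totals that omit the 50 most abundant genes (0.0764), thinning (0.0573) and leaving out WT library 1 or 4, or Rank-knockout library 1 or 3 (0.0746 to 0.104). Its 3′ tags need not lie in the deleted part, so they do not check the deletion.

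Marker genes of several cell types differed between the genotypes. Of 12 villus enterocyte markers 11 were lower in Rank-knockout, and their CPM summed to between 21947 and 30491 in WT and between 9802 and 14010 in Rank-knockout. The count of lower villus markers was 9 with library totals and without the 50 most abundant genes, and 9 to 12 with a library left out. All 16 of 16 cell cycle markers were higher, at 624 to 969 CPM summed in WT and 1543 to 2467 in Rank-knockout. This was 15 of 16 by DESeq2, by limma-voom and with RLE size factors, and 15 or 16 with a library left out. Of 8 Paneth cell markers 5 were higher, with sums of 2105 to 4478 against 2914 to 9362 CPM. That count was 3 by limma-voom and on leaving out WT library 1, 3 or 4, or Rank-knockout library 1 or 3, and 8 without Rank-knockout library 4. Of 7 goblet cell markers 1 was higher and 4 were lower (2 with library totals), and of 6 general epithelial markers, which were present at 7244 CPM or more in sum in every library, 1 was higher and 3 were lower. The 1 higher was not called by DESeq2, by limma-voom or with RLE size factors, or in 6 of the 8 fits that leave out a library. None of 7 tested T cell markers passed the threshold by edgeR, DESeq2 or limma-voom, and 1 had an unadjusted p under 0.05, while 1 was lower after thinning and without WT replicate 2. In bulk samples fewer cells of a type and less RNA per cell cannot be told apart, and this holds for every difference given here. Red blood cells are rich in Prdx2, Cat and Gpx1. The 7 red blood cell markers summed to 1.37 to 14.4 CPM in WT and 1.32 to 16.3 in Rank-knockout, and Slc4a1 had 0 counts in all libraries. The 8 myeloid markers summed to at most 16.4 CPM, with Adgre1 and S100a9 at 0 counts, and the 8 stromal markers to at most 10.9 CPM, with Tagln at 0 counts. Of 5 plasma cell markers 2 could be tested and 1 was lower (3 without WT replicate 3), with sums of 54.6 to 155 CPM in WT and 9.89 to 53.3 in Rank-knockout.

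All 10 enzymes passed the filter in these epithelial cells. Fam213a, Cat, Prdx5 and Prdx1 were lower in Rank-knockout, and Gpx2, Gpx1 and Prdx6 were higher, whereas Sod1, Gpx4 and Prdx2 did not pass the threshold. So 7 of 10 were called, beside 30.4% of all tested genes. The 3 higher members stand beside 15.8% of tested genes called higher, and the 4 lower members beside 14.6% called lower. Libraries of the genotypes did not overlap for 7 of the 10 genes, against 28.8% of all tested genes. With a library left out, 0 to 2 members were called higher by edgeR, with 0 on leaving out WT library 1 or 4, or Rank-knockout library 2, where 2 or 3 still had an unadjusted p under 0.05, and 3 to 4 were called lower. The median log2 fold change of the 10 was -0.43 (-0.23 with library totals), and that of all tested genes was 0.02. The summed level of the 10 genes lay between 6964 and 9071 CPM in WT and between 6542 and 6685 in Rank-knockout. Prdx1 and Sod1, with means of 2167.1 and 2071.5 CPM in WT, were the largest parts of this sum, and Gpx1, Gpx2 and Prdx6 went the other way. WT replicate 2, the deepest WT library, was the highest of its genotype for 7 of the 10 genes, and Rank-knockout replicate 1 was the lowest of its genotype for 6. The plot of levels by library shows both features.

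**Figure D1:**
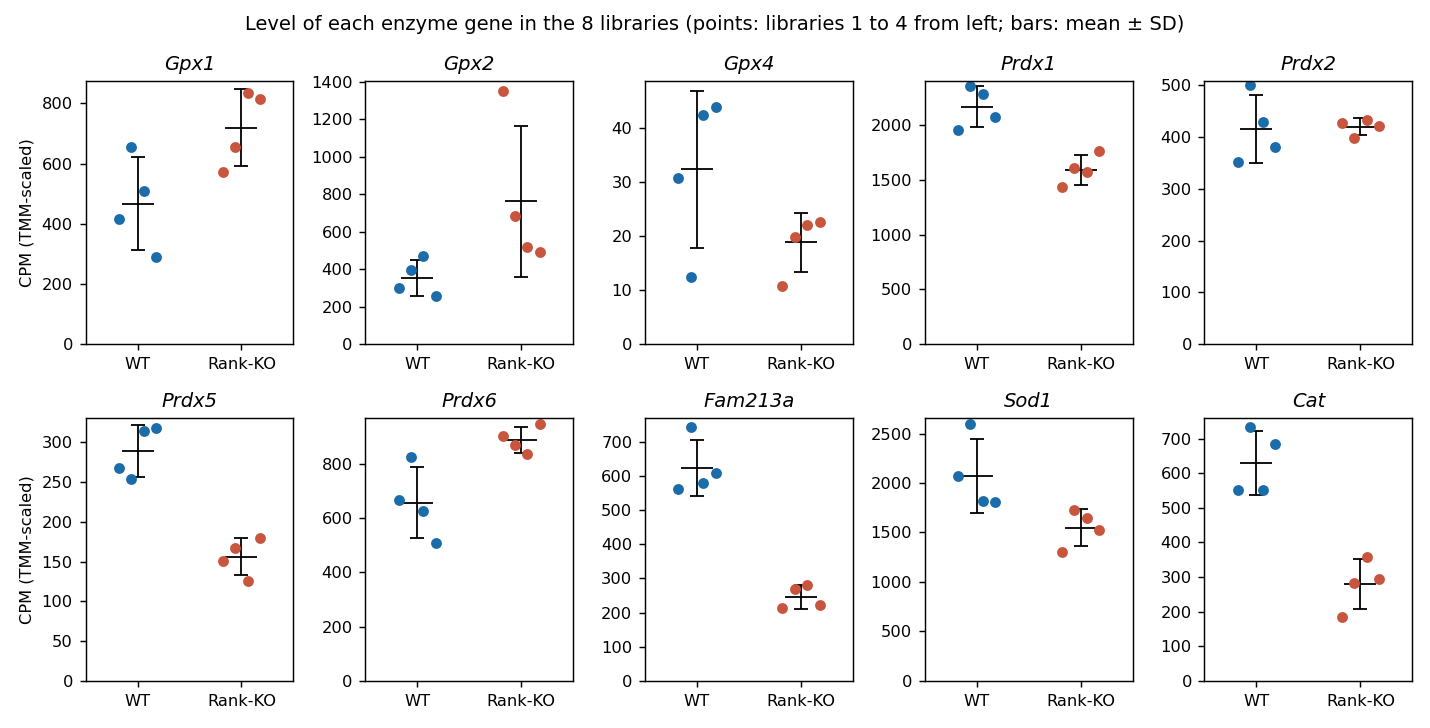
TMM-scaled CPM (y axis, linear, from 0) of each of the 10 genes in 4 WT and 4 Rank-knockout libraries; points are libraries 1 to 4 from left to right and bars are the mean ± SD. Fam213a, Cat and Prdx5 lie far apart between the genotypes, Gpx2 reaches 1349.6 CPM in Rank-knockout replicate 1, and Gpx1, Gpx4 and Prdx2 overlap.

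Many genes of this group are known targets of NRF2, the transcription factor that answers oxidants by binding antioxidant response elements. The core of that element, TGACNNNGC, was looked for on both strands in RefSeq promoters of GRCm38.p6, from 250 bases before to 50 bases after each start. It occurred in 4071 of 32851 such promoters (12.4%), and in a promoter of 3781 of 27025 genes (14.0%). Promoters were matched for 9 of the 10 genes, all but Prdx6, and 3 held the core. The windows below are shown for these genes, because they place a letter match beside genes that differed (Prdx1 and Fam213a) and one that missed the threshold (Sod1). Gclm and Srxn1, well known NRF2 targets of the glutathione and thioredoxin lists, follow for comparison. Each is read 5′ to 3′ on the strand of its gene, with the core in capitals. In all 5 the core lies on the opposite strand and therefore appears reversed and complemented.
Prdx1: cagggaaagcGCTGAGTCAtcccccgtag
Fam213a: ccctccctatGCCTGGTCAccctgcctac
Sod1: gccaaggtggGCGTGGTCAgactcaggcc
Gclm: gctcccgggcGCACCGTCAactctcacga
Srxn1: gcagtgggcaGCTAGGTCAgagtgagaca
The Prdx1 window is chr4:116685456-116685484, with the core 133 bases before the start. It also holds TGACTCA on the opposite strand, the letters of the AP-1 motif. The Fam213a window, chr14:41008273-41008301, lies 25 bases before one of its 5 starts (Prxl2a in RefSeq), and the Sod1 window, chr16:90220696-90220724, lies 56 bases before its start. The Gclm window is chr3:122245413-122245441, and the Srxn1 window, chr2:152105542-152105570, lies 28 bases after the start. These are matches of letters, not shown to be bound. Gclm and Srxn1 were both lower in Rank-knockout. In the NRF2 list below, Txnrd1, G6pdx, Pgd, Me1 and Nfe2l2, named after their values were seen, also held the core and were not called. Their edgeR adjusted p was 0.0544, 0.571, 0.861, 0.879 and 0.457. Txnrd1 passed by DESeq2 (0.0359) and with RLE size factors (0.0496). Cat, Prdx5, Gpx1 and Gpx2 differed without the core, and Gpx4 and Prdx2 lacked it and did not pass the threshold.

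Superoxide is removed first by the dismutases. Sod1 (ENSMUSG00000022982, chr16:90220754-90226329, plus strand), the enzyme of the cytosol, was among the most abundant of the 10 genes. It stood at 2069, 2595, 1819 and 1803 CPM in WT libraries 1 to 4 and at 1299, 1729, 1642 and 1527 CPM in Rank-knockout libraries 1 to 4. Every Rank-knockout library was below every WT library, but the difference missed the threshold. Its log2 fold change was -0.42 (SE 0.16, 95% interval -0.76 to -0.08, edgeR adjusted p = 0.0562). DESeq2 put it past the threshold (log2 fold change -0.43, adjusted p = 0.0329), as did a replicate block (adjusted p = 0.0457). A near-identical copy, Gm8566, held 84 counts against 38804 for Sod1.

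Sod2, the mitochondrial enzyme, had 175 ± 20.3 CPM in WT and 174 ± 32.2 in Rank-knockout (log2 fold change -0.01, 95% interval -0.33 to 0.32, edgeR adjusted p = 0.971), and its sign turned to 0.19 with library totals and to 0.12 without the 50 most abundant genes. Ccs, the chaperone that loads copper into Sod1, had a log2 fold change of -0.05 (edgeR adjusted p = 0.841), and its sign also turned, to 0.14 and 0.07. Sod3, the secreted enzyme, had 0 counts in all 8 libraries, which allows up to 2.06 CPM in the shallowest library. Within a library, counts of Sod1 were 9.09 to 15.5 times those of Sod2 in WT and 7.08 to 12.2 times in Rank-knockout, so the ratios overlapped (exact two-sided permutation p = 0.171, adjusted p = 0.20 over 7 ratios).

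Catalase fell by a wide margin. Cat (ENSMUSG00000027187, chr2:103453849-103485160, minus strand), the main peroxide-splitting enzyme of peroxisomes, stood at 551, 733, 552 and 685 CPM in WT and at 186, 283, 359 and 294 CPM in Rank-knockout. The highest Rank-knockout library was well below the lowest WT library. The mean went from 630.1 ± 93.1 to 280.5 ± 71.6 CPM, which is -1.17 on the log2 scale (SE 0.18, 2.25-fold lower, edgeR adjusted p = 0.000508). The call held in every alternative, of which library totals gave the smallest change (-0.98), and with each library left out (-1.31 to -1.01).

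Catalase shares the peroxisome with oxidases that make hydrogen peroxide. Of 14 tested genes of a list of oxidant-producing enzymes 4 fell and 2 rose, beside 14.6% and 15.8% of all tested genes. The count that fell was 2 with library totals, 7 with no filter and 2 to 6 with a library left out. The count that rose was 1 by DESeq2 and by limma-voom, and 0 to 2 with a library left out. The median was -0.50, which was -0.31 with library totals and turned to 0.08 with no filter. Acox2, which oxidizes branched-chain fatty acids and bile acid precursors in peroxisomes, fell from 43.5 ± 9.71 to 20.9 ± 5.29 CPM (log2 fold change -1.09, edgeR adjusted p = 0.00237). Among the others that fell were Acox3 (-0.58) and xanthine dehydrogenase, Xdh (-0.64), named after their values were seen. Either call was lost with library totals (adjusted p = 0.118 and 0.0571) and without Rank-knockout replicate 3 (0.0691 and 0.0587), that of Acox3 also without the 50 most abundant genes (0.0694), without WT replicate 3 (0.0703) or Rank-knockout replicate 2 (0.0525). The 2 that rose organize or activate the epithelial NADPH oxidase: Noxo1 (0.45, edgeR adjusted p = 0.0391) and Noxa1 (1.16, adjusted p = 0.0282). Noxa1 was at 36.5 CPM in Rank-knockout replicate 1 and at 11.2 to 17.3 CPM in the other 3 Rank-knockout libraries, against 7.51 to 10.1 CPM in WT. Without that library its log2 fold change was 0.60 (adjusted p = 0.12) and that of Noxo1 was 0.41 (adjusted p = 0.10). Either call was also lost without WT replicate 1, 3 or 4, at adjusted p = 0.0649 to 0.161, and that of Noxo1 without Rank-knockout replicate 2 or 3 (0.0828 and 0.0716). Noxo1 was also not called by DESeq2 (0.0546) or with no filter (0.0518), nor Noxa1 by limma-voom (0.084). The oxidase itself, Nox1, had too few counts to be tested.

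Of 19 tested peroxisome assembly and transport genes 5 fell, beside 14.6% of all tested genes, with a median of -0.23 that was -0.03 with library totals and -0.10 without the 50 most abundant genes. None of the 19 rose by edgeR, by DESeq2, by limma-voom or at an unadjusted p under 0.05 with all 8 libraries. With no filter 1 gene rose, Pex10, named after its values were seen (2.14 ± 0.418 CPM in WT and 5.66 ± 1.35 in Rank-knockout, log2 fold change 1.48, edgeR adjusted p = 0.0148), which the filter left untested. On leaving out WT library 1, 2 genes rose, and 1 did on leaving out WT library 2, 3 or 4, or Rank-knockout library 2 or 3. Pex16, which takes part in building the peroxisome membrane, fell from 75.1 ± 5.53 to 49.9 ± 10.3 CPM (log2 fold change -0.58, edgeR adjusted p = 0.0155). Abcd3, Pex3 and Pex11a, named after their values were seen, also fell (-0.55, -0.62 and -0.37), each with a call lost with library totals (adjusted p = 0.125, 0.15 and 0.289) and without the 50 most abundant genes (0.0785, 0.097 and 0.154). The calls of Pex3 and Pex11a were also lost with no filter and after thinning. With a library left out the call was lost in 6 of 8 fits for Abcd3, 5 for Pex3 and 7 for Pex11a. The count of lower genes was 1 with library totals, 2 without the 50 most abundant genes and 3 without the filter. It was also 3 in libraries thinned to the smallest total. It was 1 to 3 on leaving out WT library 1, 3 or 4, or Rank-knockout library 1, 2 or 3. The call of Pex16 was lost with library totals (adjusted p = 0.0898) and without Rank-knockout replicate 3 (0.0559). Of 12 villus enterocyte markers 11 were lower in Rank-knockout (9 with library totals), and their part in the levels of Cat, the oxidases and the peroxisome genes was not tested.

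Among glutathione peroxidases, Gpx1 and Gpx2 rose and Gpx4 did not pass the threshold. Gpx1 (ENSMUSG00000063856, chr9:108338903-108340343, plus strand), the selenoenzyme found in nearly every cell, stood at 414, 655, 509 and 291 CPM in WT and at 572, 655, 835 and 815 CPM in Rank-knockout. Rank-knockout replicate 1 lay below WT replicate 2, so the genotypes overlapped. Gpx1 rose from 467 ± 154 to 719 ± 127 CPM (log2 fold change 0.62, SE 0.21, 95% interval 0.17 to 1.07, edgeR adjusted p = 0.0388). This call was lost on leaving out WT library 1, 3 or 4, or Rank-knockout library 2, 3 or 4, with log2 fold changes of 0.42 to 0.66 and adjusted p of 0.0567 to 0.138.

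Gpx2 (ENSMUSG00000042808, chr12:76792333-76795554, minus strand) is the glutathione peroxidase typical of the gastrointestinal epithelium and is found mainly in crypts. It stood at 297, 395, 469 and 256 CPM in WT and at 1349.6, 685, 521 and 491 CPM in Rank-knockout. The genotypes did not overlap, but the gap between WT replicate 3 and Rank-knockout replicate 4 was small, and Rank-knockout replicate 1 stood far above the other 3. The log2 fold change was 1.10 (SE 0.34, 2.15-fold higher, edgeR adjusted p = 0.0337), and it was 0.68 without Rank-knockout replicate 1, with the call kept. The call was lost with a replicate block (1.01, adjusted p = 0.0533) and on leaving out WT library 1, 2 or 4, or Rank-knockout library 2, at 0.94 to 1.15 with adjusted p of 0.0502 to 0.0923. Of the crypt lists, 16 of 16 cell cycle markers and 5 of 8 Paneth cell markers were also higher in Rank-knockout, and their part in the level of Gpx2 was not tested.

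Gpx4 (ENSMUSG00000075706, chr10:80047166-80056439, plus strand), the enzyme that reduces lipid peroxides in membranes and guards against ferroptosis, was the least abundant of the 10 genes in this table. It stood at 30.8, 12.4, 42.3 and 43.9 CPM in WT and at 10.8, 19.9, 22.0 and 22.7 CPM in Rank-knockout, from 45 to 86 counts per library. WT replicate 2 was as low as the Rank-knockout libraries. The log2 fold change was -0.74 (SE 0.37, 95% interval -1.55 to 0.07, edgeR adjusted p = 0.152), and -1.08 with adjusted p = 0.00339 without WT replicate 2. Without the filter on low counts it was also past the threshold (-0.70, adjusted p = 0.0183). The last 400 bases of its transcripts are 99.75% identical to the pseudogene Gpx4-ps2, which held 154 counts against 461 for Gpx4. Reads shared by such copies can be dropped or misplaced, so the level of Gpx4 is uncertain.

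Of the other glutathione peroxidases, Gpx3, the secreted form, had 5.16 ± 1.26 CPM in WT and 3.38 ± 1.502 in Rank-knockout (log2 fold change -0.64, edgeR adjusted p = 0.214). Gpx5, Gpx6, Gpx7 and Gpx8 had at most 3 counts in any library and were not tested. Within a library, the ratio of Gpx2 to Gpx1 counts was 0.603 to 0.922 in WT and 0.602 to 1.05 in 3 Rank-knockout libraries, with 2.36 in Rank-knockout replicate 1. The difference of mean log2 ratios was 0.35 (exact two-sided permutation p = 0.629), and -0.07 without that library. The ratio of Gpx4 to Gpx1 had a difference of -1.35 (exact permutation p = 0.114) and of -1.94 without WT replicate 2 (exact permutation p = 0.0286, not adjusted and the smallest possible).

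The ratio of Cat to Gpx1, both of which remove hydrogen peroxide, does not depend on the scaling between libraries. Cat counts were 1.33, 1.12, 1.09 and 2.36 times those of Gpx1 in WT libraries 1 to 4, and 0.324, 0.432, 0.430 and 0.360 times in Rank-knockout. Catalase was thus the more abundant of the pair by tags in every WT library and Gpx1 in every Rank-knockout library. The difference of mean log2 ratios was -1.86, a 3.64-fold lower ratio, with an exact two-sided permutation p of 0.0286, the smallest the 70 assignments allow. Adjusted over the 7 ratios it was 0.05, at the threshold and not under it, since 4 of the 7 ratios tied at the smallest p.

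**Figure D2:**
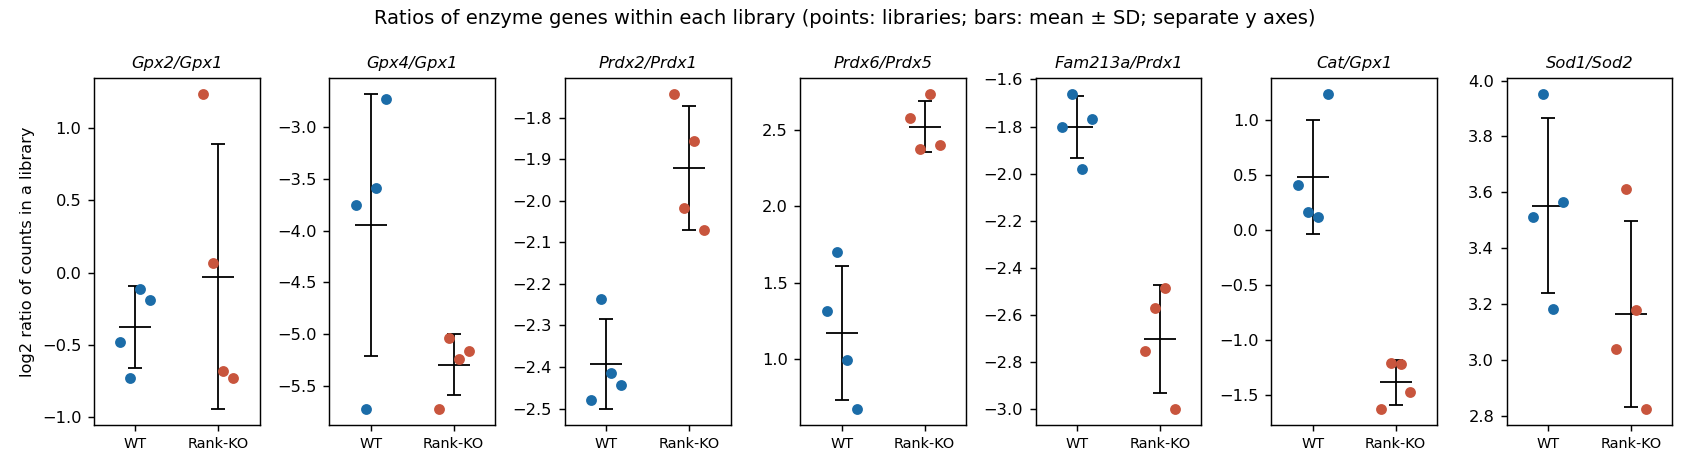
Log2 ratio of the counts of 2 genes in each library (y axis, a separate scale for each panel) for 7 pairs, with points for 4 WT and 4 Rank-knockout libraries and bars for the mean ± SD. The genotypes do not overlap for Prdx2/Prdx1, Prdx6/Prdx5, Fam213a/Prdx1 and Cat/Gpx1, and 1 Rank-knockout library stands apart for Gpx2/Gpx1.

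Peroxiredoxins went in both directions. Prdx1 (ENSMUSG00000028691, chr4:116685544-116700822, plus strand), the abundant thioredoxin-dependent enzyme of the cytosol, stood at 1955, 2356, 2286 and 2071 CPM in WT and at 1433, 1608, 1568 and 1767 CPM in Rank-knockout. The genotypes did not overlap. Prdx1 was lower with a log2 fold change of -0.44 (SE 0.14, 1.36-fold, edgeR adjusted p = 0.0257). The call was lost with library totals (-0.25, adjusted p = 0.154), without the 50 most abundant genes (-0.31, 0.0832) and without the filter on low counts (-0.41, 0.0631). It was also lost on leaving out WT library 2 or 3, or Rank-knockout library 1, 2 or 3, at -0.45 to -0.39 with adjusted p of 0.051 to 0.0736.

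Prdx2 (ENSMUSG00000005161, chr8:84969587-84974834, plus strand), the closely related cytosolic enzyme, stood at 351, 500.2, 429 and 381 CPM in WT and at 428, 397, 433 and 421 CPM in Rank-knockout. All 4 Rank-knockout libraries lay within the WT range. Its log2 fold change was 0.01 (95% interval -0.28 to 0.31, edgeR adjusted p = 0.954), a sign that turned with RLE size factors and DESeq2 and on leaving out WT library 1 or 4, or Rank-knockout library 3. Prdx2 counts were 0.179 to 0.212 times those of Prdx1 in WT and 0.238 to 0.299 times in Rank-knockout. The mean log2 ratio differed by 0.47 with no overlap (exact permutation p = 0.0286, adjusted p = 0.05, at the threshold).

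Prdx5 (ENSMUSG00000024953, chr19:6906697-6910106, minus strand) works in mitochondria, peroxisomes and the cytosol. It stood at 268, 254, 315 and 318 CPM in WT and at 151, 167, 126 and 179.5 CPM in Rank-knockout, a clear gap. The mean fell from 289 ± 32.5 to 156 ± 23.2 CPM, a log2 fold change of -0.89 (SE 0.15, 1.85-fold lower, edgeR adjusted p = 0.000615). The call held in every alternative, of which library totals gave the smallest change (-0.69), and with each library left out (-0.96 to -0.80).

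Prdx6 (ENSMUSG00000026701, chr1:161240112-161251219, minus strand) reduces phospholipid peroxides with glutathione and also has phospholipase activity. It stood at 667, 826, 627 and 508 CPM in WT and at 901, 868, 837 and 947 CPM in Rank-knockout. The lowest Rank-knockout library was just above the highest WT library. Prdx6 was higher with a log2 fold change of 0.43 (SE 0.16, 1.35-fold, edgeR adjusted p = 0.0438), close to the threshold. The call was lost with RLE size factors (0.42, adjusted p = 0.0566) and without any 1 library except WT replicate 2, at 0.30 to 0.46 with adjusted p of 0.069 to 0.203. Prdx6 counts were 2.49, 3.25, 1.99 and 1.60 times those of Prdx5 in WT and 5.96, 5.18, 6.65 and 5.28 times in Rank-knockout. The mean log2 ratio differed by 1.35 with no overlap (exact permutation p = 0.0286, adjusted p = 0.05, at the threshold).

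Fam213a (ENSMUSG00000021792, chr14:40993740-41013788, minus strand), also called PAMM or Prxl2a, carries a peroxiredoxin-like fold. It stood at 561, 744, 580 and 608 CPM in WT and at 212, 271, 280.1 and 221 CPM in Rank-knockout. Each Rank-knockout library held less than each WT library by a wide margin. The mean fell from 623 ± 82.9 to 246 ± 34.3 CPM, a log2 fold change of -1.34 (SE 0.15, 2.54-fold lower, edgeR adjusted p = 9.88e-05). The call held in every alternative, of which library totals gave the smallest change (-1.15), and with each library left out (-1.42 to -1.25). This was the largest change of the 10 genes by TMM, but Gpx2 had the larger one with library totals (1.32) and without the 50 most abundant genes (1.24 against -1.22). Fam213a counts were 0.254 to 0.316 times those of Prdx1 in WT and 0.125 to 0.179 times in Rank-knockout (difference -0.90 on the log2 scale, exact permutation p = 0.0286, adjusted p = 0.05, at the threshold).

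The remaining peroxiredoxins and their relatives also differed among themselves. Prdx4, the enzyme of the endoplasmic reticulum, rose from 10.96 ± 2.50 to 23.2 ± 4.75 CPM with no overlap (log2 fold change 1.07, edgeR adjusted p = 0.0037). Fam213b, a prostamide synthase with a related fold, fell from 362 ± 49.0 to 216 ± 31.4 CPM with no overlap (-0.75, adjusted p = 0.00197). Prdx3, the mitochondrial enzyme, had 29.8 ± 8.06 CPM in WT and 43.0 ± 6.10 in Rank-knockout (0.56, edgeR adjusted p = 0.0504). It passed the threshold in 6 alternatives, among them library totals (0.76, adjusted p = 0.0119) and limma-voom (0.63, 0.035), and without WT replicate 3 (0.70, 0.025). Aaed1 had a log2 fold change of -0.13 (edgeR adjusted p = 0.732) and of 0.07 with library totals. Of the 12 relatives outside the 10 genes 7 were tested, of which 1 rose and 1 fell, beside 30.4% of all tested genes called in either direction. Their median was -0.05, and it turned to 0.14 with library totals.

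**Figure D3:**
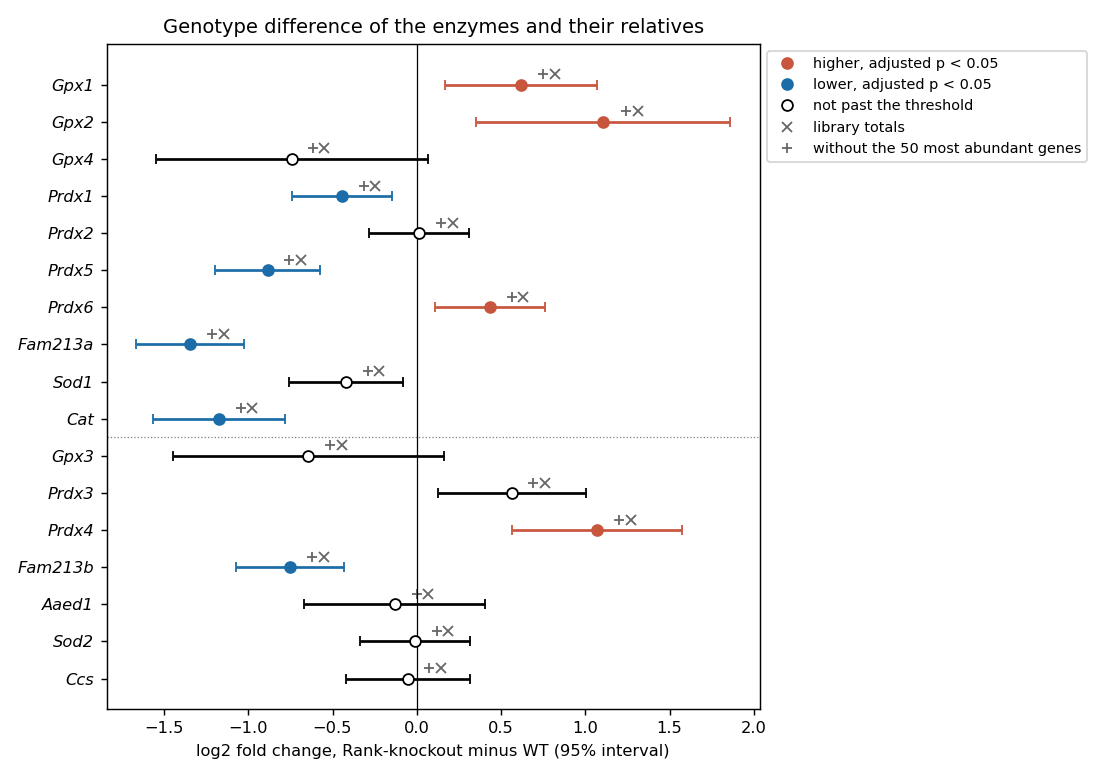
Log2 fold change of Rank-knockout minus WT (x axis) with its 95% interval for the 10 genes (above the dotted line) and their 7 tested relatives (below), filled where the edgeR adjusted p is under 0.05. Crosses and plus signs give the value with library totals and with totals that omit the 50 most abundant genes, which lie to the right of the main value for each gene; Cat, Fam213a and Prdx5 remain below 0.

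The enzymes depend on systems that supply and recycle their substrates. Of 15 tested genes of the thioredoxin and glutaredoxin systems 2 fell and 1 rose, beside 14.6% and 15.8% of all tested genes, with a median of -0.11 that turned to 0.10 with library totals. With library totals 2 fell and 3 rose, and with a library left out 2 to 4 fell and 0 to 3 rose. Srxn1, the sulfiredoxin that repairs overoxidized peroxiredoxins and whose promoter window is shown above, fell from 1091 ± 139 to 685 ± 95.3 CPM with no overlap (log2 fold change -0.67, edgeR adjusted p = 0.00389). Glrx, the cytosolic glutaredoxin, fell from 371 ± 35.0 to 196 ± 33.1 CPM (-0.92, adjusted p = 0.000557). Glrx5, which serves iron-sulfur cluster assembly in mitochondria, rose from 216 ± 32.6 to 288 ± 21.7 CPM (0.42, adjusted p = 0.0366), a call lost on leaving out WT library 1, 3 or 4, or Rank-knockout library 1 or 3 (0.29 to 0.44, adjusted p = 0.0598 to 0.175). Thioredoxin itself, Txn1, had a log2 fold change of 0.10 (edgeR adjusted p = 0.834).

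Of 12 tested genes of glutathione synthesis, recycling and turnover 5 fell, beside 14.6% of all tested genes, with a median of -0.53 that was -0.16 after thinning, -0.32 with no filter, -0.33 with library totals and -0.35 with a mean CPM of at least 5. None rose by edgeR, by DESeq2, by limma-voom or at an unadjusted p under 0.05. Gclm, the modifier subunit of the enzyme that sets the rate of glutathione synthesis, stood at 169, 175, 170.1 and 192 CPM in WT and at 70.3, 90.4, 94.4 and 92.5 CPM in Rank-knockout. No library came near the other genotype (log2 fold change -1.02, 2.03-fold lower, edgeR adjusted p = 0.000205). Ggt1, the brush border enzyme that breaks down extracellular glutathione, fell from 2697 ± 412 to 1218 ± 111 CPM (-1.15, adjusted p = 0.000189). The other 3, Idh1, Oplah and the catalytic subunit Gclc, are named after their values were seen (-0.90, -0.99 and -0.51). The glutathione reductase Gsr had a log2 fold change of 0.66 (edgeR adjusted p = 0.236). The count of lower genes was 3 in thinned libraries and without WT replicate 2. The call of Gclc was lost with library totals (adjusted p = 0.171), without the 50 most abundant genes (0.104), with no filter (0.0561), after thinning (0.145) and on leaving out WT library 1, 2 or 4, or Rank-knockout library 1, 3 or 4 (0.058 to 0.104). That of Oplah was lost without WT replicate 2 (0.0505) and without Rank-knockout replicate 2 (0.0536).

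Of 16 tested genes of a list of NRF2, its inhibitor Keap1 and well known NRF2 targets 5 fell, beside 14.6% of all tested genes that fell and 30.4% called in either direction, with a median of -0.19 that turned to 0.01 with library totals. None rose by edgeR, by DESeq2, by limma-voom or at an unadjusted p under 0.05, and 1 rose with library totals and without the 50 most abundant genes. Gclm, Srxn1 and Gclc are shared with the lists above, Osgin1, a growth inhibitor induced by oxidants, fell from 64.7 ± 8.59 to 33.0 ± 6.21 CPM (log2 fold change -0.96, edgeR adjusted p = 0.0011), and Fth1, the ferritin heavy chain, was the fifth (-0.67, named after its value was seen). Nfe2l2, which encodes NRF2, had 195 ± 22.9 CPM in WT and 176 ± 26.8 in Rank-knockout (-0.16, adjusted p = 0.457), and Keap1 had a log2 fold change of -0.08 (edgeR adjusted p = 0.68). The classic target Nqo1 had -0.17 (edgeR adjusted p = 0.544). The TGACNNNGC core occurred in a promoter of 7 of 16 matched genes of this list, 5 of 11 of the glutathione list, 3 of 14 of the thioredoxin list and 2 of 10 of the relatives, beside 14.0% of all genes. Of the 5 glutathione genes with the core 4 (Gclm, G6pdx, Pgd and Me1) are also counted in the NRF2 list, as are Txnrd1 and Srxn1 of the 3 thioredoxin genes.

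Gpx1, Gpx2 and Gpx4 carry selenocysteine. Of 21 other tested selenoproteins and factors that make them 4 fell and 2 rose, a share called near the 30.4% of all tested genes, with a median of -0.06 that turned to 0.14 with library totals. Selenop, the selenium carrier, fell from 2469 ± 653 to 841 ± 126 CPM (log2 fold change -1.55, 2.94-fold lower, edgeR adjusted p = 0.000138), and Dio1, a deiodinase of thyroid hormone, fell from 92.9 ± 1.31 to 39.9 ± 8.79 CPM (-1.22, adjusted p = 0.000205). Selenoi and Msrb1, named after their values were seen, were the other 2 that fell (-0.82 and -0.52), the second with a call lost with library totals (adjusted p = 0.123), without the 50 most abundant genes (0.0664), with no filter (0.0635) and without Rank-knockout replicate 1 or 2 (0.0561 and 0.0646). Selenoh, a nuclear selenoprotein, rose from 17.0 ± 5.84 to 39.1 ± 7.07 CPM (1.16, edgeR adjusted p = 0.00207). Trnau1ap, a factor that associates with the selenocysteine transfer RNA, had a log2 fold change of 0.79 (edgeR adjusted p = 0.0375), which was not past the threshold by DESeq2 (0.0683), by limma-voom (0.0507), after thinning (0.0681) or on leaving out WT library 1, 3 or 4, or Rank-knockout library 1 (0.0577 to 0.141).

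**Figure D4:**
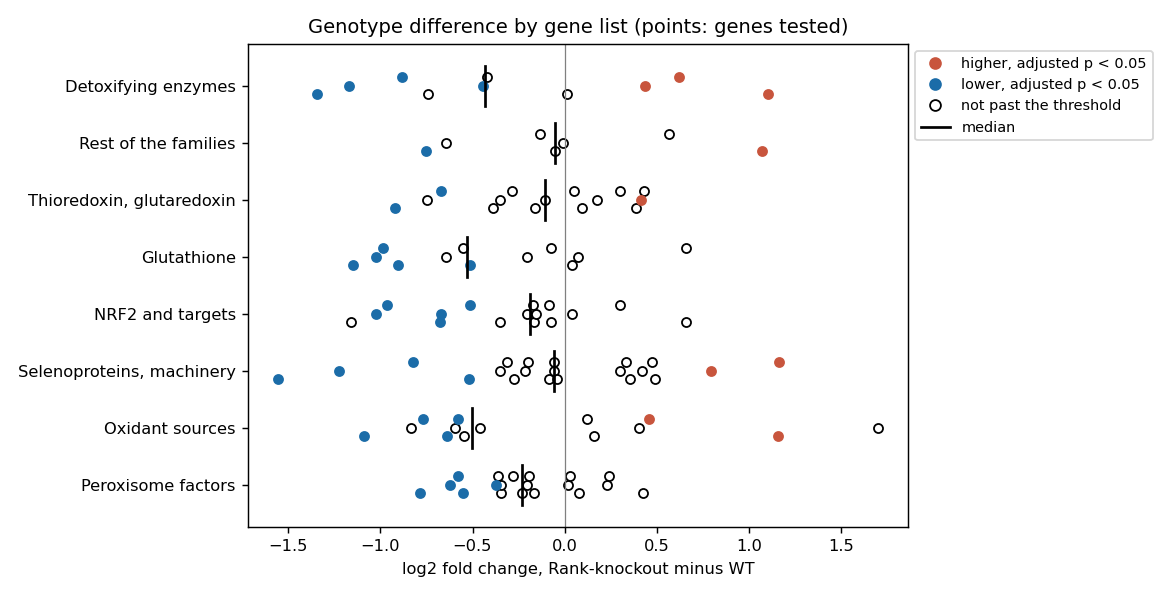
Log2 fold change of Rank-knockout minus WT (x axis) of every tested gene of 8 lists, with each point a gene, filled where the edgeR adjusted p is under 0.05, and a bar at the list's median. The medians of the glutathione list (-0.53), the oxidant sources (-0.50) and the 10 enzymes (-0.43) are below 0 here, an order that changes with the setting, and the selenoprotein list is spread from -1.55 to 1.16; Gclm, Srxn1 and others stand in more than 1 list.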

How the data were processed

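QuantSeq 3′ reads were trimmed by the authors, cleared of ribosomal, mitochondrial and phiX reads, aligned to GRCm38 (STAR) and assigned to Ensembl genes with strand kept (featureCounts). What they deposited is a table of raw counts. Molecular identifiers are not mentioned. Positions came from GENCODE M21 (GRCm38), which held 54409 of 54532 identifiers. Of all 54532 genes 33764 had 0 counts in all libraries.

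Counts were tested with edgeR 4.0.16 (R 4.3.3; filterByExpr, TMM, robust quasi-likelihood F-test, genotype as the only term, Benjamini-Hochberg over 9855 genes, threshold 0.05). Intervals are 95%. Fold changes are Rank-knockout minus WT, and SE were derived from the F statistic. P values of the fits weigh the genotype difference against the spread between these 8 libraries, moderated across genes. Within-library ratios were tested by exact permutation, with a prior count of 2 as an alternative. An upper limit for 0 counts is 3 counts and covers counting error only. Alternatives were DESeq2 1.42.0, limma-voom (limma 3.58.1), RLE, scaling by library totals or by totals that omit the 50 most abundant genes, no filter, a filter of mean CPM 5, a replicate block, each library left out, and, added after seeing the data, thinning. Copies were searched with BLAST 2.17.0 over the last 400 bases of transcripts (at least 95% identity over 150 bases).

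The 10 genes and all lists were chosen with earlier results of these data known. Named are the 10 genes, their relatives, up to 2 called genes with the smallest p per direction in each of 6 pathway lists, Tnfrsf11a, markers, and genes said to be named after their values were seen, to which Txn1, Gsr, Nfe2l2, Keap1, Nqo1 and Nox1 belong. A few genes picked this way are not reported here.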

Additional observations from a re-analysis of the deposited data

Results flagged for a closer look

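The total of WT replicate 2 stood apart from its genotype. It held 4335653 counts, and the other 3 WT libraries held 1530781 to 1616024, so its gap to the nearest was larger than Dixon's 95% critical value allows for 4 samples. It was 1 of 36 sets of 4 libraries examined, of which chance would flag about 1.8. The same library was the highest WT library for 7 of the 10 enzymes and the lowest for 2, among them Gpx4, and the part of its depth in these levels was not tested.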

How the results depend on the processing

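Calls of Cat, Fam213a and Prdx5 held under all 9 alternative settings and with each of the 8 libraries left out. With each library left out in turn, 0 to 2 of the 10 enzymes were higher and 3 to 4 lower, and 1020 to 1723 of all genes were higher and 1097 to 1564 lower. No enzyme was called higher without WT replicate 1, WT replicate 4 or Rank-knockout replicate 2 by edgeR, where 2 or 3 had an unadjusted p under 0.05, and DESeq2 and limma-voom on all libraries called 3. WT libraries other than replicate 2 are the shallowest. The median log2 fold change of the oxidant sources was 0.08 with no filter, and that of the glutathione list was -0.16 after thinning. The cause of the changes below was not tested.

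Scaling by library totals called 2566 genes higher and 859 lower, so 74.9% of calls were higher against 52.0% by TMM, and without the 50 most abundant genes 2164 and 1016 (68.1%). With library totals the log2 fold changes of Aaed1 (0.068), Sod2 (0.19), Ccs (0.14), Nfe2l2 (0.040), Keap1 (0.12) and Nqo1 (0.021) turned positive. Without the 50 most abundant genes those of Sod2 (0.12), Ccs (0.074) and Keap1 (0.047) did, and without the filter that of Sod2 (0.028). Prdx2 turned to -0.000327 with RLE size factors and -0.00185 with DESeq2. With a library left out, Prdx2 ran from -0.086 to 0.11, Sod2 from -0.13 to 0.078, Ccs from -0.14 to 0.079, Txn1 from -0.16 to 0.26, the log2 ratio of Gpx2 to Gpx1 from -0.071 to 0.59 and that of Gpx4 to Gpx1 from -1.94 to -0.94.

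Counts in the lists moved as follows. The relatives had 2 genes higher with library totals, without the 50 most abundant genes, with no filter, with a mean CPM of at least 5, with limma-voom and with the replicate block, since Prdx3 was then called. Thioredoxin genes higher were 3 with library totals and 2 without the 50 most abundant genes, with the replicate block and after thinning. NRF2 genes higher were 1 with library totals and without the 50 most abundant genes. Selenoprotein genes higher were 1 with DESeq2, limma-voom and thinning. Oxidant-source genes higher were 1 with DESeq2 and limma-voom, and lower were 2 with library totals and 7 with no filter. Peroxisome genes lower were 1 with library totals, 2 without the 50 most abundant genes and 3 with no filter and after thinning, and 1 was higher with no filter. Glutathione genes lower were 3 after thinning. With a library left out the ranges were 1 to 2 (relatives higher), 0 to 3 (thioredoxin higher), 2 to 4 (thioredoxin lower), 3 to 5 (glutathione lower), 1 to 2 (selenium higher), 0 to 2 (oxidant sources higher), 2 to 6 (oxidant sources lower), 0 to 2 (peroxisome higher) and 1 to 5 (peroxisome lower).

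Replicate numbers were not shown to pair animals: deviations of same-numbered libraries correlated at 0.0517, 0.153, -0.139 and 0.323, and 4 of 8 libraries correlated best with their own number. A replicate block moved the counts to 1708 higher and 1602 lower genes and to 2 higher and 5 lower enzymes. For the ratios, an exact permutation by sign flips within pairs cannot go below p = 0.125, so the differences of 0.47 (Prdx2/Prdx1), 1.35 (Prdx6/Prdx5), -0.90 (Fam213a/Prdx1) and -1.86 (Cat/Gpx1) did not pass with the replicate block.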
